A study of Mus musculus with 6 samples.

Results

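The cholinergic neuron genes are 8 genes that serve acetylcholine neurons of the forebrain: Chat, Slc5a7, Slc18a3, Ache, Lhx8, Gbx1, Isl1 and Ngfr. They were taken by symbol from 33274 gene rows of a count table, each symbol had 1 row, and 5 of the 8 passed the filter on low counts that 18327 genes passed in all. Expression was measured by RNA-seq of polyadenylated RNA from the cerebral cortex of wild type female mice of the outbred ICR strain at 6 weeks of age. The 6 animals were grandoffspring of males given methylphenidate, an inhibitor of dopamine and noradrenaline reuptake, at 15 mg/kg (3 libraries) or saline at 10 mL/kg (3 libraries), injected subcutaneously on 21 consecutive days. Descent ran through untreated dams and through F1 sons, so no animal sequenced here received either agent. The labels do not say which animals share a litter or grandsire. The question for these genes was whether their cortical level differed with the lineage and whether they varied together over the 6 libraries.

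Acetylcholine is made from choline and acetyl-CoA by choline acetyltransferase, the product of Chat. The vesicular transporter encoded by Slc18a3 loads it into synaptic vesicles, acetylcholinesterase (Ache) splits it in the synaptic cleft, and the choline transporter encoded by Slc5a7 takes the choline back up. Most acetylcholine in the cortex is released from axons of neurons whose cell bodies lie in the basal forebrain, while the striatum has its own cholinergic interneurons and the mouse cortex a small class of neurons with both Chat and Vip. The cell bodies hold most of the mRNA, so a cortical sample holds few of these transcripts. Lhx8, Isl1 and Gbx1 encode homeodomain transcription factors of the developing and adult cholinergic lineage, and Ngfr encodes p75, a receptor for neurotrophins on basal forebrain cholinergic neurons.

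Slc18a3 lies inside Chat, an arrangement known as the cholinergic gene locus. In the GENCODE M21 annotation of GRCm38, Chat spans chr14:32408203-32465989 and Slc18a3 chr14:32462438-32464850, both on the minus strand. Slc18a3 sits in the intron between 32462043 and 32465806, its start lies 1139 bases from the outermost start of Chat, and the 2 genes share 0 exonic bases. The noncoding gene Gm2990 overlaps the 5′ end of Chat on the other strand and had 0 to 10 counts in a library, and whether reads were counted by strand was not stated in the labels. Sequence before the start is shown for the 3 genes of synthesis and transport, a choice made after their values were seen. Of the 8 genes, 7 had a promoter in the RefSeq table of GRCm38.p6, and bases inside an annotated UTR were left out. The stretches shown hold 170 bases for Chat and 250 each for Slc18a3 and Slc5a7. A match describes these letters and is not a binding site. Each run reads 5′ to 3′ toward the gene, and capitals mark the motifs named after it.
Chat, chr14:32465990-32466159, minus strand: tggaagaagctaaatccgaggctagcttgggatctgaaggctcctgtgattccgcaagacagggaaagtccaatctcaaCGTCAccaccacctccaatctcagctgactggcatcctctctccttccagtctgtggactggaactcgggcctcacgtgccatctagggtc
Slc18a3, chr14:32464851-32465100, minus strand: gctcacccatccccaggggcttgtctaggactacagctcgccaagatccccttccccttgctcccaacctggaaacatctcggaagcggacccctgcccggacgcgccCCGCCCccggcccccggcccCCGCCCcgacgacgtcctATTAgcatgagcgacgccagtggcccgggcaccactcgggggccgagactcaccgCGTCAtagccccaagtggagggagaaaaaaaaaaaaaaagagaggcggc
Slc5a7, chr17:54299035-54299284, minus strand: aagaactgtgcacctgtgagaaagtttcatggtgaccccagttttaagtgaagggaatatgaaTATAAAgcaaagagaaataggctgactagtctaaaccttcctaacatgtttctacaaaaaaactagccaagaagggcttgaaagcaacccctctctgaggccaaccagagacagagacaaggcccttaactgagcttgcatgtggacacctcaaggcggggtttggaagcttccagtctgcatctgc

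The motifs were searched on both strands. They were the homeodomain core TAAT, the left part of the RE1 silencer element CAGCACC, the right part of that element GGACAG, the GC box GGGCGG, the core of the cAMP response element TGACG, and the TATA box TATAAA. A match on the other strand appears in the printed run as its reverse complement. The Chat stretch of 170 bases held 1 TGACG, as 9.86% of 32851 promoters did over the same stretch. The Slc18a3 stretch of 250 bases held 2 GGGCGG, 1 TAAT and 1 TGACG, which occurred in 32.7%, 54.9% and 17.8% of promoters, and no 2 of these matches overlapped. The Slc5a7 stretch held 1 TATAAA, as 12.4% of promoters did. Neither part of the RE1 element was found in any of the 3 stretches. No searched motif was found in all 3 stretches, while Chat and Slc18a3 each held 1 TGACG. The 3 stretches also differed in composition, with a GC content of 54.7% for Chat, 66.0% for Slc18a3 and 45.6% for Slc5a7, against medians of 51.2% over the Chat stretch and 52.4% over the 250 bases in all promoters. CpG pairs numbered 5, 21 and 1 in Chat, Slc18a3 and Slc5a7.

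Libraries held 23896752 to 28120640 counts, and 3 counts, the most that a count of 0 allows, equalled 0.105 to 0.124 CPM (counts scaled to a common library size, after trimmed mean of M values normalization). Slc17a7, the vesicular glutamate transporter of cortical excitatory neurons, lay between 1020 and 1249 CPM in the 6 libraries. In all, 5 of 18327 genes, or 0.0273%, passed an adjusted p of 0.05 between the lineages, and none of the 5 cholinergic neuron genes tested was among them.

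The 3 genes of acetylcholine synthesis and transport lay 3.97 times (Chat), 4.36 times (Slc5a7) and 5.48 times (Slc18a3) higher in the methylphenidate lineage, but none passed the test over all genes. In bulk tissue, more cells of a type and more RNA per cell cannot be told apart. Slc5a7 had 20, 26 and 22 counts in saline replicates 1, 2 and 3 and 101, 47 and 145 in methylphenidate replicates 1, 2 and 3. Its saline libraries were alike, its methylphenidate libraries spread widely, and the groups did not overlap. The mean level was 0.90 ± 0.13 CPM in the saline and 3.93 ± 2.17 CPM in the methylphenidate lineage (SD, n = 3 per group), which is 2.13 on the log2 scale (SE 0.45, 95% interval 1.12 to 3.13, adjusted p = 0.226 with the edgeR quasi-likelihood test). Slc18a3 had 6, 2 and 6 counts (saline) against 19, 26 and 34 (methylphenidate), again without overlap. Its mean rested on few reads, at 0.18 ± 0.09 and 1.03 ± 0.32 CPM, and the log2 difference was 2.45 (SE 0.55, 95% interval 1.22 to 3.69, adjusted p with edgeR = 0.245). The saline counts lay under the 10 that the filter asks for, so Slc18a3 was tested only because the methylphenidate libraries were higher. Chat had 30, 3 and 12 counts (saline) against 44, 24 and 107 (methylphenidate). Here the groups overlapped, since saline replicate 1 lay above methylphenidate replicate 2. The means were 0.59 ± 0.52 and 2.36 ± 1.84 CPM, and the log2 difference was 1.99 (SE 0.74, 95% interval 0.32 to 3.66, adjusted p with edgeR = 0.604).

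**Figure D1:**
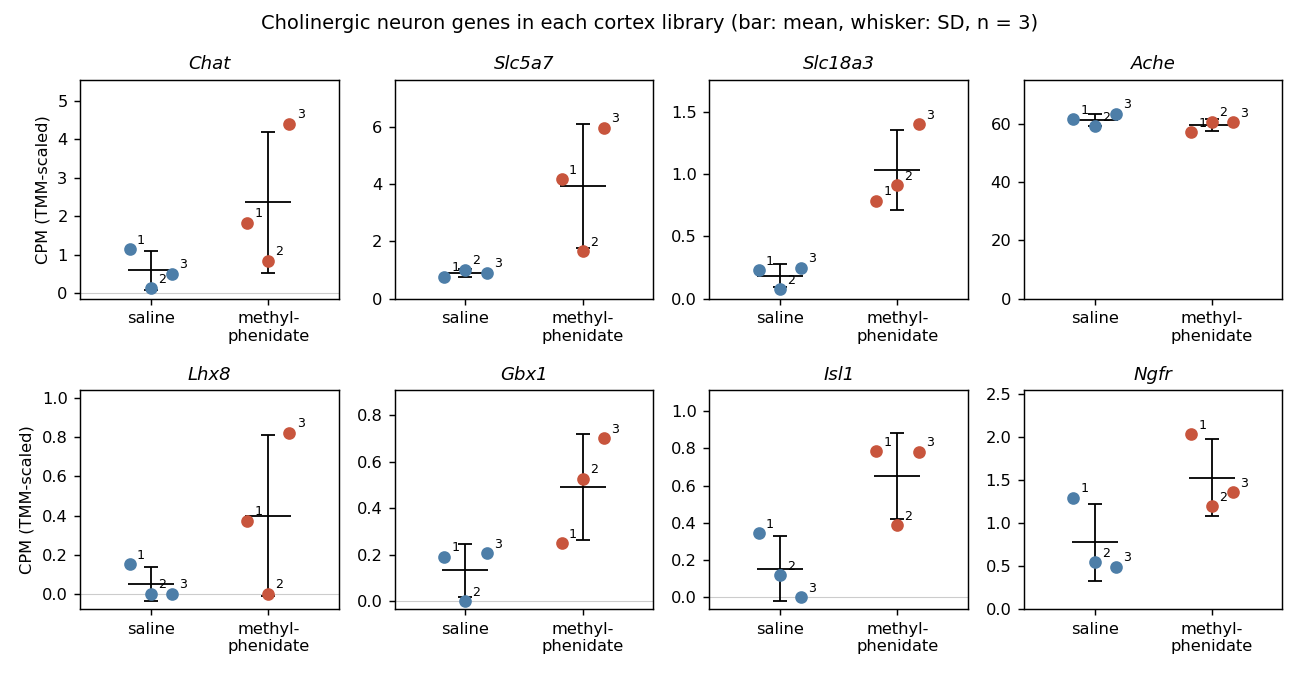
Level of each of the 8 genes in CPM (vertical axis, a separate linear scale per panel) in the 3 saline and 3 methylphenidate libraries, numbered by replicate, with the mean and SD as bar and whisker. Slc5a7, Slc18a3, Gbx1 and Isl1 show no overlap between the groups, while Ache lies between 57.1 and 63.3 CPM in all 6 libraries.

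The intervals hold for 1 gene at a time and are not adjusted for the number of genes tested. Single libraries moved these values. Without methylphenidate replicate 2, Slc5a7 passed the threshold (log2 fold change 2.50, SE 0.32, edgeR adjusted p = 0.0486). That library had the lowest Slc5a7 of its group, and the fit without it called 12 of 18867 genes tested. Without methylphenidate replicate 3, Slc5a7 had a log2 fold change of 1.69 (edgeR adjusted p = 0.628). Over all fits of this gene with edgeR the adjusted p ran from 0.0486 to 0.628. The DESeq2 test called Slc5a7 with all 6 libraries (adjusted p = 0.00101), but neither Slc18a3 (DESeq2 adjusted p = 0.0783) nor Chat (DESeq2 adjusted p = 0.178), and it called 0.863% of the genes to which it gave an adjusted p. The log2 fold change of Chat was 1.17 without methylphenidate replicate 3 and 2.93 without saline replicate 1. The same value for Slc18a3 stayed between 2.09 and 2.71 without any one library. At an unadjusted p under 0.05, these 3 of the 5 genes tested were higher, beside 4.20% of all genes tested, and 2 of the 5 did not overlap with methylphenidate higher, beside 6.97% of all genes tested. The genes tested are those that reached the filter, in part through the higher group, so these counts describe them and support nothing further.

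Ache, which encodes the enzyme that ends the acetylcholine signal, did not share this pattern. It had 1614, 1512 and 1532 counts (saline) against 1379, 1726 and 1470 (methylphenidate), and the groups overlapped. The log2 difference was -0.04 (SE 0.07, adjusted p = 0.929 with edgeR), with a 95% interval from -0.20 to 0.11, which does not reach the intervals of Slc5a7, Slc18a3 or Chat. Many neurons that do not release acetylcholine also make acetylcholinesterase. Per kilobase of exon in the GENCODE M21 annotation, Ache stood at 13.3 ± 0.5 CPM in the saline and 12.9 ± 0.4 CPM in the methylphenidate lineage. The next gene on this scale was Ngfr in the saline lineage, at 0.23 ± 0.13 CPM per kilobase. Slc5a7 followed at 0.16 ± 0.02, Chat at 0.12 ± 0.11 and Slc18a3 at 0.08 ± 0.04, and neighbours in this order below Ache did not differ beyond their spread. The transcription factor genes were lowest, with Isl1 at 0.04 ± 0.04, Gbx1 at 0.04 ± 0.03 and Lhx8 at 0.02 ± 0.03. In the methylphenidate lineage Slc5a7 had 0.70 ± 0.38, Chat 0.50 ± 0.39, Ngfr 0.44 ± 0.13 and Slc18a3 0.43 ± 0.13 CPM per kilobase, and neighbours in that order did not differ beyond their spread. Isl1 at 0.16 ± 0.06, Lhx8 at 0.16 ± 0.16 and Gbx1 at 0.14 ± 0.07 were again lowest.

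The identity factors were near the limit of detection, and none of the 3 passed the filter on low counts. Isl1, a LIM homeodomain factor of cholinergic and of striatal projection neurons, had 9, 3 and 0 counts in saline replicates 1 to 3 and 19, 11 and 19 in the methylphenidate libraries. The groups did not overlap, by a gap of 2 counts between saline replicate 1 and methylphenidate replicate 2. Gbx1 had 5, 0 and 5 counts (saline) against 6, 15 and 17 (methylphenidate), which did not overlap by a gap of 1 count. Lhx8, the LIM homeodomain factor that directs cholinergic fate in the ventral forebrain, had 4, 0 and 0 counts (saline) against 9, 0 and 20 (methylphenidate). It was thus seen in saline replicate 1 and in methylphenidate replicates 1 and 3 alone, and in the other 3 libraries it was not detectable at this depth, which allows up to 0.105 to 0.124 CPM. In a fit with no filter on low counts, the log2 fold changes were 2.03 for Isl1 (SE 0.88), 1.86 for Gbx1 (SE 0.91) and 2.81 for Lhx8 (SE 1.55), and the edgeR adjusted p was 0.739 for each.

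Ngfr had 34, 14 and 12 counts (saline) against 49, 34 and 33 (methylphenidate). Scaled to library size, saline replicate 1 at 1.29 CPM lay above methylphenidate replicate 2 at 1.19 CPM, so the groups overlapped. The means were 0.78 ± 0.45 and 1.53 ± 0.44 CPM (SD, n = 3 per group), and the log2 difference was 0.96 (SE 0.46, 95% interval -0.07 to 1.99, adjusted p with edgeR = 0.685), and 1.54 without saline replicate 1.

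The median log2 fold change over the 5 genes tested was 1.99, beside 0.0008 over all genes tested. It was 1.17 over the same 5 genes without methylphenidate replicate 3. With no filter it was 2.00 over all 8 genes.

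Other genes of the same pathway were read from a list of 16, of which 15 were tested. None passed the threshold in either direction with edgeR, DESeq2 or limma-voom, and the median log2 fold change was -0.04, with 6 genes above 0 and 9 below. At an unadjusted p under 0.05, edgeR gave 2 higher and 1 lower, beside 4.20% higher and 3.31% lower of all genes tested. Prima1, which encodes the membrane anchor of acetylcholinesterase in the brain, had 29, 19 and 36 counts (saline) against 68, 38 and 64 (methylphenidate), a log2 difference of 1.02 (SE 0.40, adjusted p = 0.608 with edgeR). Slc10a4, whose product sits in vesicles of cholinergic and monoaminergic terminals, had 16, 0 and 0 counts (saline) against 36, 10 and 38 (methylphenidate), a log2 difference of 2.42 (SE 1.08, adjusted p = 0.665 with edgeR). Bche, the gene of butyrylcholinesterase, the second enzyme that splits acetylcholine, had 150, 277 and 195 counts (saline) against 133, 173 and 124 (methylphenidate), a log2 difference of -0.56 (SE 0.23, adjusted p = 0.636 with edgeR). Genes of general choline handling lay close to 0, with log2 fold changes of -0.04 for Slc44a1, -0.09 for Chka and -0.03 for Chkb (SE 0.10, 0.10 and 0.16). Among genes of the embryonic ventral forebrain, the log2 difference was -0.15 for Lhx6 (SE 0.11) and -0.11 for Zic1 (SE 0.15). Nkx2-1, a factor of the medial ganglionic eminence singled out once its values were known, had 20, 0 and 0 counts (saline) against 19, 10 and 33 (methylphenidate), a log2 difference of 1.66 (SE 1.10, adjusted p = 0.787 with edgeR).

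**Figure D2:**
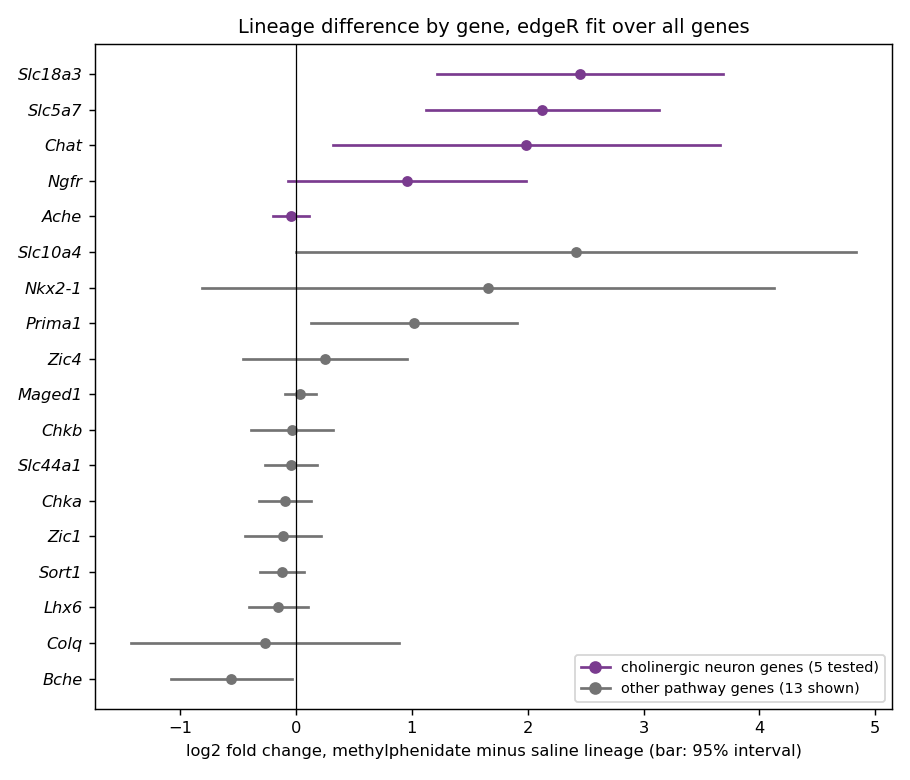
Log2 fold change of methylphenidate minus saline lineage (horizontal axis) with its 95% interval for the 5 cholinergic neuron genes tested and 13 other pathway genes. Slc18a3, Slc5a7 and Chat have intervals above 0, from 0.32 for Chat upward, while Ache and the genes of choline handling have narrow intervals around 0. The intervals of Prima1 (0.13 to 1.91) and Slc10a4 (0.0006 to 4.84) also lie above 0, and that of Bche (-1.08 to -0.04) lies below 0.

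Low detection was concentrated in saline replicates 2 and 3. Among the cholinergic neuron genes and the pathway genes, Lhx8, Gbx1, Slc10a4 and Nkx2-1 had 0 counts in saline replicate 2, and Lhx8, Isl1, Slc10a4 and Nkx2-1 in saline replicate 3. In saline replicate 1 the gene at 0 was Gbx2, in methylphenidate replicate 2 it was Lhx8, and methylphenidate replicates 1 and 3 had none. Saline replicate 1 was also the highest of its group for Chat, Lhx8, Isl1, Ngfr, Slc10a4 and Nkx2-1, but the lowest for Slc5a7. In CPM, Slc18a3, Gbx1 and Ache were highest in saline replicate 3, though Slc18a3 and Gbx1 had equal counts in saline replicates 1 and 3.

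The 6 pairs among Chat, Slc5a7, Slc18a3 and Ngfr correlated above 0 over the 6 libraries, and the 4 pairs with Ache below 0. The sign was not stable for the pairs of Ache with Slc18a3, Chat and Ngfr. With group means removed, r went from -0.19 to 0.82 for Slc18a3 and Ache and from -0.10 to 0.36 for Chat and Ache. For Ngfr and Ache it went from -0.55 to 0.91 without saline replicate 3 and methylphenidate replicate 1, the libraries farthest from the median of Ache. Other versions of these pairs stayed below 0. Without saline replicate 2 and methylphenidate replicate 3, r was -0.71 for Slc18a3 and Ache and -0.92 for Chat and Ache. With group means removed, r was -0.34 for Ngfr and Ache. Slc5a7 and Ache had r of -0.52, -0.25 with group means removed and -0.32 without methylphenidate replicates 1 and 3. The lineages do not overlap in Slc5a7 or Slc18a3, so part of each such value is the difference between the groups. The closest pair was Chat and Slc18a3, the 2 genes of the shared locus, with Pearson's r of 0.86 on log2 CPM (exact permutation p = 0.0236, adjusted 0.157 over 10 pairs) and Spearman's rho of 0.71 (exact permutation p = 0.136, adjusted 0.345). Without saline replicate 2 and methylphenidate replicate 3, the libraries farthest from the median of Chat, r was 0.45. Leaving out those libraries narrows the range of Chat and leaves few points, so the lower r cannot show what the relation rests on. With the mean of each group removed, r was 0.83. Chat and Ngfr had r of 0.78 (exact permutation p = 0.0472, adjusted 0.157) and rho of 0.89 (exact permutation p = 0.0333, adjusted 0.333), with r of 0.97 without those libraries and 0.56 with group means removed. Chat and Slc5a7 had r of 0.77 (exact permutation p = 0.0736, adjusted 0.184) and rho of 0.60 (exact permutation p = 0.242, adjusted 0.345), with r of 0.69 and 0.46 in the same order. Slc5a7 and Slc18a3 had r of 0.83 (exact permutation p = 0.0472, adjusted 0.157) and rho of 0.77 (exact permutation p = 0.103, adjusted 0.345), which became 0.73 for r without methylphenidate replicates 1 and 3 and 0.16 with group means removed. Of the 10 pairs none passed after adjustment. The median r over the pairs was 0.68, and 0.26 with group means removed.

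The proportion of Chat to Slc5a7 counts was not constant in the saline lineage. Chat gave 60.0% of the counts of the pair in saline replicate 1 (30 of 50, exact Clopper-Pearson 95% interval 45.2 to 73.6%) but 10.3% in saline replicate 2 (3 of 29, 2.2 to 27.4%), intervals that do not overlap. Saline replicate 3 lay between them at 35.3% (19.8 to 53.5%). The methylphenidate libraries had 30.3% (23.0 to 38.5%), 33.8% (23.0 to 46.0%) and 42.5% (36.3 to 48.8%) in replicates 1, 2 and 3, which overlap. The share of Slc18a3 in its pair with Slc5a7 ran from 7.14% in saline replicate 2 (0.877 to 23.5%) to 35.6% in methylphenidate replicate 2 (24.8 to 47.7%). These intervals cover counting error only and not the spread between animals. Reads without molecular identifiers are not independent molecules, so the intervals may also be too narrow.

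**Figure D3:**
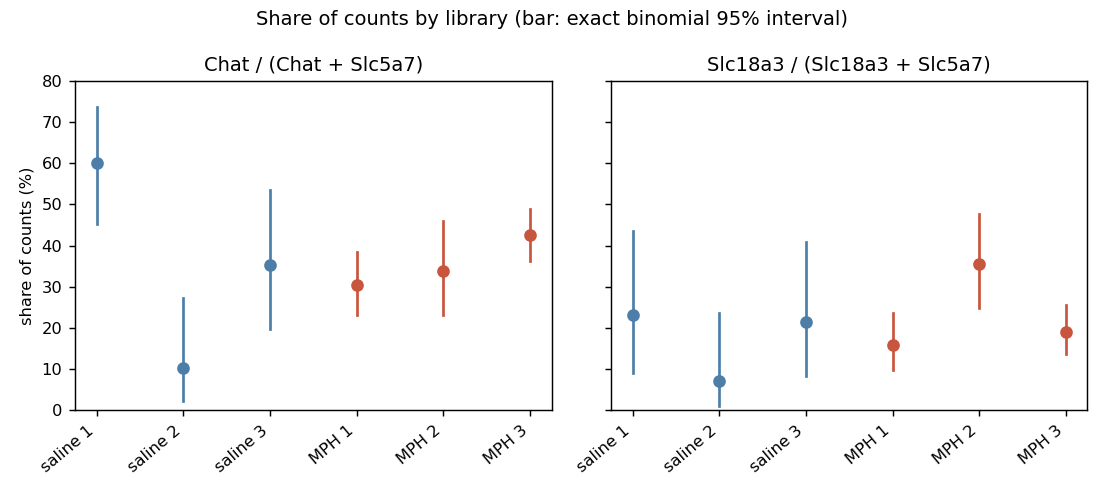
Share of Chat counts in the sum of Chat and Slc5a7 (left) and of Slc18a3 counts in the sum of Slc18a3 and Slc5a7 (right), in percent, for each library with its exact binomial 95% interval (MPH: methylphenidate lineage). For Chat, saline replicate 1 at 60.0% and saline replicate 2 at 10.3% stand apart, and the 3 methylphenidate libraries lie between 30.3 and 42.5%.

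Markers of striatal projection neurons also lay higher in the methylphenidate lineage. All 12 striatal markers had log2 fold changes above 0 and 11 had an unadjusted p under 0.05 with methylphenidate higher, beside 4.20% of all genes tested. None passed the edgeR threshold. For 7 of the 12 the groups did not overlap, beside 6.97% of all genes tested. Drd1 and Six3 were among those that DESeq2 called (adjusted p of 0.00138 and 9.7e-05). The summed level of the list was 393 to 528 CPM in the saline and 526 to 1134 CPM in the methylphenidate libraries, and none was at 0 in any library. Averaged over the striatal list, centred log2 CPM reached 0.87, -0.07 and 1.28 in methylphenidate replicates 1, 2 and 3, and that of the 5 cholinergic neuron genes tested was 0.74, 0.18 and 1.15, in the same order. The hypothalamic list, at 0.54, -0.33 and 1.6, and the VIP interneuron list, at 0.04, -0.01 and 0.20, had that order too, so 3 of the 7 marker lists shared it. Among the 5 cholinergic neuron genes, Chat and Slc5a7 had this order singly, but Slc18a3, Ngfr and Ache did not. In methylphenidate replicates 1, 2 and 3, Slc18a3 had 0.79, 0.91 and 1.40 CPM, Ngfr 2.03, 1.19 and 1.36, and Ache 57.1, 60.6 and 60.5. In saline replicates 1, 2 and 3 the striatal list had -0.16, -0.89 and -1.02 and the cholinergic neuron genes -0.26, -1.15 and -0.66, where replicate 1 was highest in both. The part of striatal tissue in the result was not tested.

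Markers of other cell types that could hold these transcripts were read the same way. The VIP interneuron list, which marks the cortical neurons that can carry Chat, summed to 123 to 143 CPM in the saline and 134 to 148 CPM in the methylphenidate libraries, and 5 of its 7 members lay above 0. The log2 difference was -0.07 for Vip itself (SE 0.10) and 0.84 for Calb2, which encodes calretinin (SE 0.18, adjusted p = 0.220 with edgeR). Markers of the medial habenula, another cholinergic nucleus, summed to 6.91 to 8.94 CPM in the saline and 9.02 to 10.3 CPM in the methylphenidate libraries. All 3 of its tested members lay above 0, and Pou4f1, its defining factor, had 0 counts in saline replicates 1 and 3 and in methylphenidate replicates 1 and 3. Hypothalamic markers summed to 2.32 to 3.28 CPM in the saline and 3.79 to 22.1 CPM in the methylphenidate libraries. The highest sum came from Pomc in methylphenidate replicate 3, at 471 counts or 19.4 CPM against 38 and 55 counts in the others of its group, and without that library the highest sum was 4.10 CPM. All 3 hypothalamic markers tested lay above 0, and 6 of the 8 on that list were at 0 in at least 1 library, among them Hcrt in all 3 saline libraries. Cortical excitatory markers summed to 1648 to 1760 CPM in the saline and 1537 to 1811 CPM in the methylphenidate libraries. Most of each sum was Slc17a7, at 1020 to 1249 CPM, the 1 member above 0, and 7 of 8 lay below 0. At an unadjusted p under 0.05, edgeR gave 5 of the 8 lower, beside 3.31% of all genes tested. For 3 of the 8 the groups did not overlap with methylphenidate lower, beside 1194 of 18327 genes tested. Choroid plexus markers ranged from 42.3 to 653 CPM and from 23.7 to 500 CPM, with all 5 below 0. Saline replicate 1 and methylphenidate replicate 3, the libraries with the highest Chat of their groups, had the lowest choroid plexus sums. Mural and meningeal markers, which bear on Ngfr, summed to 117 to 135 CPM and 117 to 140 CPM, with 3 of 5 above 0. No member of these lists passed the edgeR threshold, while Calb2 was among those that DESeq2 called, and their part in the result was not tested.

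**Figure D4:**
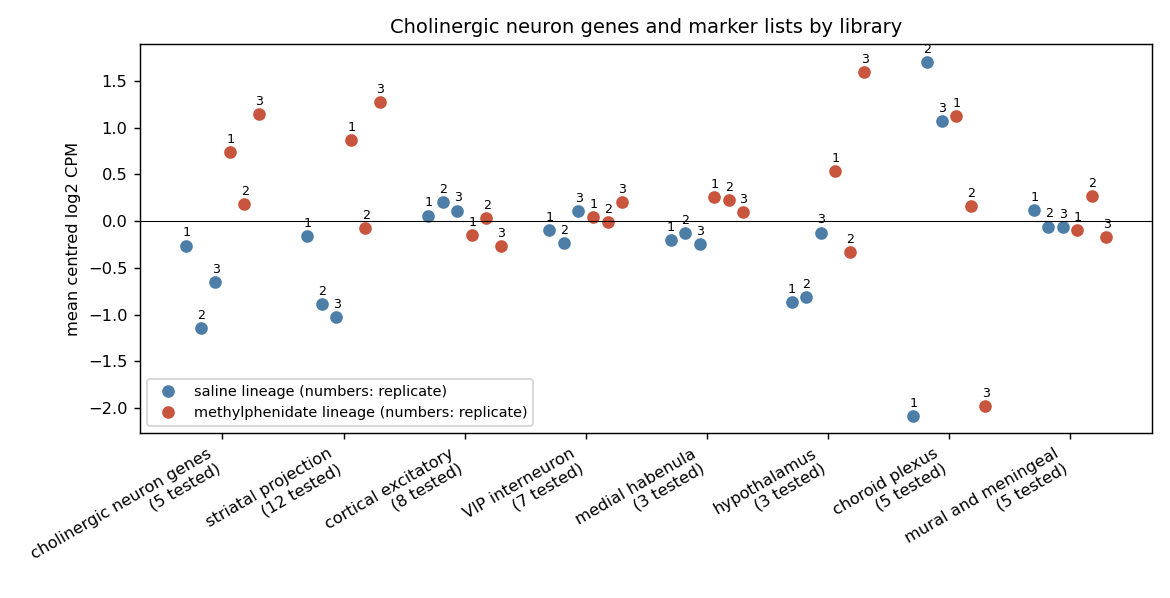
Mean centred log2 CPM (vertical axis) over the tested members of the cholinergic neuron genes and of 7 marker lists, 1 point per library, numbered by replicate. The means of the cholinergic neuron genes and of the striatal projection list share the order of methylphenidate replicates 3, 1 and 2. The former lie at 1.15, 0.74 and 0.18, and the VIP interneuron and hypothalamic means have that order too. Singly, Chat and Slc5a7 have it, while Slc18a3, Ngfr and Ache do not.

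The genes whose log2 CPM ran most like Chat over the 6 libraries, among 15672 with a mean of at least 1 CPM, were Bc1, Mgat5b, Scd2, Notch1 and Shank3 (r from 0.988 to 0.996). These genes varied far less than Chat in size. Scd2, for example, had 1512, 1269 and 1418 CPM in the saline and 1548, 1460 and 1641 CPM in the methylphenidate libraries. The genes most like the mean of Chat, Slc5a7 and Slc18a3 were Syndig1l, Fads2, Rimbp3, Fcer1g and Rhobtb3 (r from 0.985 to 0.991). Syndig1l, known for its high level in the caudate and putamen, had 5.18, 2.54 and 3.47 CPM in the saline and 14.7, 8.40 and 33.8 CPM in the methylphenidate libraries, which is 2.34 on the log2 scale (SE 0.47). With 6 libraries and that many genes compared, values of r this high describe these libraries and no more.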

How the data were processed

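Directional poly(A) libraries of cerebral cortex from 6 mice were sequenced, 3 per lineage, and groups came from the sample titles. Per the submitters' processing notes, bcl2fastq 2.19, fastp 0.23.4, HISAT2 2.2.1, StringTie 2.2.1 and the build GRCm39 were used; not given in the sources used here are roles, annotation release and strand setting. The deposited values are raw read counts for each Ensembl gene, with 985 of 33274 rows lacking a symbol.

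The counts entered edgeR 4.0.16 (R 4.3.3) with default filterByExpr, TMM normalization and a two-sided quasi-likelihood test with group as the only term, Benjamini-Hochberg adjusted over all genes tested, threshold 0.05. The alternatives tried were other scalings (RLE, upper quartile, total count), other filters (none, or at least 10 counts in 3 libraries with a mean of 1 CPM or more), other tests (DESeq2 1.42.0, voom in limma 3.58.1), a threshold of 0.1, mitochondrially encoded genes left out of library size, a block on replicate number, and each library left out in turn. Log2 CPM used a prior count of 2. The fit was tested on simulated data with known changes. Since litters are unknown, p-values reflect no more than the spread among these 6 samples. The reference is GENCODE M21 and RefSeq on GRCm38, another build than that of the counts, and served for lengths, positions and promoters alone.

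The 8 genes, the lists and the alternatives were chosen with earlier results of these data known. The text names all 8, genes among the 4 of smallest p in a list, the 5 genes most alike by correlation, and a few genes that bear on a cell type, such as Slc17a7, Vip, Pou4f1, Hcrt and the pathway genes beyond those 4, chosen after their values were seen. Some genes of the lists enter their counts and sums but are not reported here by name.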

Additional observations from a re-analysis of the deposited data

How the results depend on the processing

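The count of cholinergic neuron genes past the threshold was 0 in the reported fit and in every alternative except DESeq2, which called 1 (Slc5a7), and the fits that leave out 1 library, which called 0 to 1 (Slc5a7, without methylphenidate replicate 2). The count of pathway genes was 0 throughout. The median log2 fold change of the 5 genes tested was 1.47 with the stricter filter, which removes Slc18a3. Without any one library it ran from 1.17 to 2.35, but the filter then kept 5 genes (without methylphenidate replicate 3), 6 (without methylphenidate replicate 1 or 2) or 7 (without any one saline library), so these medians are not over the same genes. The median r over the pairs was 0.54 with Spearman's correlation and 0.28 over genes with a mean of at least 1 CPM, which again leaves out Slc18a3, and ran from 0.58 to 0.80 without any one library.

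Over 18 single genes, 6 of 266 values under an alternative changed sign, all without 1 library. All were for genes that were not called and whose 95% intervals in the reported fit spanned 0. Without any one library their values ran from -0.72 to 0.084 for Colq, -0.13 to 0.050 for Slc44a1, -0.21 to 0.094 for Chkb and -0.013 to 0.44 for Zic4, and the cause was not tested. Equal replicate numbers did not stand out as pairs, with correlations of deviations of -0.04, 0.09 and -0.02 for replicates 1, 2 and 3. Between unequal numbers the correlations ran from -0.112 to 0.134. A replicate block left 0 genes of either list past the threshold, with 1.97 as the median log2 fold change. Depth limits Lhx8, Gbx1, Isl1 and Slc18a3, each at no more than 34 counts in a library.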
